A study of Mus musculus with 3 samples.

Results

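Cluster 0 is a group of cells from mouse brains that carried metastases of E0771, a mammary carcinoma line grown in culture before injection. Its cells were chosen by the number 0 in the deposited per-cell table together with the hashing antibody of a brain bearing metastases, which gave 3152 of 12421 cells. The suspension called metastasis 1 held 1640 of them and metastasis 2 held 1512. They were compared with the 4620 cells of clusters 1, 3 and 4 of the same brains. The submitters had made these clusters from the same RNA, so differences in RNA between them are given below as descriptions, with no test.

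The brains bearing metastases were those of female C57BL/6 mice aged 2 to 3 months, 2 weeks or so after E0771 cells had been given into a carotid artery. Naive brains came from female mice of that strain and age that carried no tumour. The labels describe the material as 1 brain hemisphere. Tissue was dissociated with papain and passed over a Percoll gradient that enriches mononuclear cells, so a share of cells is a share of an enriched suspension, not of a tumour. Every brain was stained with 6 antibodies, against CD45, CD11b and CD86 of myeloid and other leukocytes and CD3e, CD4 and CD25 of T cells, and with its own hashing antibody, and the brains were then loaded as 1 pool in a CITE-seq run, which reads RNA and antibody-bound tags from the same droplets. The 4 hashing antibodies in the files mark 2 brains bearing metastases and 2 naive brains. The series design speaks of 6 hashed samples, while 4 hashing tags were found and are taken here as 4 brains. Whether they came from separate animals is stated no further, so an SD over 2 of them may be technical. A unique molecular identifier (UMI) stands for 1 captured RNA molecule. Metastasis 1 held 45724262 UMIs in 5360 cells and metastasis 2 held 57620835 UMIs in 6174 cells, and no barcode occurred in more than 1 cell.

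As background, E0771 arose from a mammary tumour of a C57BL/6 mouse, and its cells divide quickly in culture. Dividing cells make histone and replication RNAs in S phase and a separate set of RNAs for spindle, cyclin B and the anaphase-promoting complex in G2 and mitosis. Cells exposed to type I interferon turn on antiviral genes, many of which carry interferon-stimulated response elements near their start.

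Cluster 0 made up 30.6% of the cells of metastasis 1 (95% exact Clopper-Pearson interval 29.4 to 31.9) and 24.5% of those of metastasis 2 (23.4 to 25.6). These intervals cover counting error only. Its cells were deep, with a median of 13260 and 15283 UMIs in metastasis 1 and metastasis 2, against 6166 and 6137 UMIs in cluster 1 and 5585 and 5911 UMIs in cluster 4. Cluster 3 was as deep, at 13808 and 13972 UMIs, so depth does not set cluster 0 apart from all 3. The shallowest cells of cluster 0 held 3044 and 915 UMIs and the deepest 36830 and 48398. When each cell was thinned to 2000 UMIs, cluster 0 cells showed a median of 995 and 993 genes, against 996 and 993.5 genes in clusters 1, 3 and 4. A median of 1.15% and 0.983% of UMIs in cluster 0 came from mitochondrial genes.

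The genes given as marks of this cluster were present but did not separate it from clusters 1, 3 and 4. Krt8, a keratin of simple epithelia, stood at 432 and 656 CPM (UMIs per 1000000 UMIs of the sum) in cluster 0 of metastasis 1 and metastasis 2, against 422 and 689 CPM in clusters 1, 3 and 4. Wfdc2, a secreted protein with a whey acidic domain, had 581 and 379 CPM in cluster 0, against 485 and 323 CPM. Ube2c, the ubiquitin-conjugating enzyme that works with the anaphase-promoting complex, had 288 and 297 CPM in cluster 0, against 244 and 228 CPM in the 3 other clusters. All of these differences lie under 1.5-fold.

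Ptcra, the chain that pairs with the T cell receptor beta chain in developing T cells, had 249 and 107 CPM in cluster 0, against 217 and 81.3 CPM in clusters 1, 3 and 4. Dctpp1, an enzyme that breaks down dCTP, had 410 and 371 CPM in cluster 0, against 368 and 308 CPM. The mean log2 ratios of the 5 genes within a brain, with 1 CPM added on both sides, ran from -0.02 for Krt8 to 0.31 for Ube2c. Against the 8 clusters 2 and 6 to 12 pooled, the 5 genes were 1.83-fold to 2.51-fold higher in cluster 0 in either brain. They ranked between 14 and 48 among 31053 genes when 20 CPM were added to both sides of the ratio. In cluster 9 alone, Ube2c had 32.7 and 44.5 CPM and Wfdc2 333 and 235 CPM, so the pool hides differences among the 8. Cluster 5 was not used here.

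Epithelial genes were present in part. Of 24 on the epithelial list 4 passed the filter, which were Krt8, Wfdc2, Clu, a secreted chaperone, with 154 and 130 CPM in cluster 0, against 148 and 145 CPM in clusters 1, 3 and 4, and Spint2, a protease inhibitor, with 42.8 and 48.1 CPM, against 42.4 and 49.6 CPM. Krt18, the usual partner keratin of Krt8, had 68 and 27 UMIs in all cluster 0 cells of metastasis 1 and metastasis 2, or 2.97 and 1.10 CPM. It had 42.8 and 44.4 CPM in the 8 other clusters pooled, and 196 and 239 CPM in cluster 9 alone. Epcam, an epithelial adhesion molecule, had 1 and 3 UMIs, and Cdh1, which encodes E-cadherin, had 0 in both brains. Krt19 had 1 and 1 UMIs and Krt7 had 0 in both. Leading genes against the 8 other clusters were Esx1 and Rhox5, X-linked homeobox genes known from placenta and testis, the histone gene Hist1h2ap, the centriole kinase Plk4 and the serine synthesis enzyme Phgdh. They are named by rank after their values were seen. Esx1 had 538 and 571 CPM in cluster 0, against 508 and 510 CPM in clusters 1, 3 and 4, so it too was shared by all 4 clusters.

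Most marker lists of other brain and immune cells were lower in cluster 0 than in the 8 other clusters. The 13 monocyte and macrophage markers summed to 107 and 93.6 CPM in cluster 0 of metastasis 1 and metastasis 2, against 129 and 110 CPM in clusters 1, 3 and 4 and 11964 and 11801 CPM in the 8 other clusters. The 13 microglial markers summed to 108 and 119 CPM in cluster 0, led by Olfml3, against 109 and 123 CPM in clusters 1, 3 and 4. The 7 choroid plexus and ependymal markers gave 595 and 504 CPM in cluster 0, nearly all from Ttr, against 675 and 552 CPM. Red blood cell genes summed to 13.7 and 4.11 CPM in cluster 0, against 44.2 and 7.33 CPM in clusters 1, 3 and 4 and 3.19 and 4.46 CPM in the 8 other clusters. The 6 neuronal markers were higher, at 74.7 and 81.8 CPM in cluster 0, against 62.8 and 72.2 CPM in clusters 1, 3 and 4 and 43.7 and 48.3 CPM in the 8 other clusters, nearly all from Tubb3, a tubulin, at 74.4 and 81.5 CPM in cluster 0.

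Among the 14 marker lists, Ncr1, Ms4a1, Clec9a, Aqp4, Olig1, Snap25 and Syt1 had 0 UMIs in cluster 0 of both brains. The 12 T and NK cell genes summed to 3.06 and 2.44 CPM in cluster 0, against 5.51 and 5.50 CPM in clusters 1, 3 and 4. Ptcra was thus accompanied by little RNA of these 12 genes. Notch1 and Hes1, of the pathway that acts with Ptcra in thymocytes, were the other T lineage genes past the filter. Notch1 had 22.8 and 18.7 CPM in cluster 0 and Hes1 had 138 and 162 CPM, with mean log2 ratios of -0.06 and -0.02. The part of free RNA and of other cells in the differences below was not tested.

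**Figure D1:**
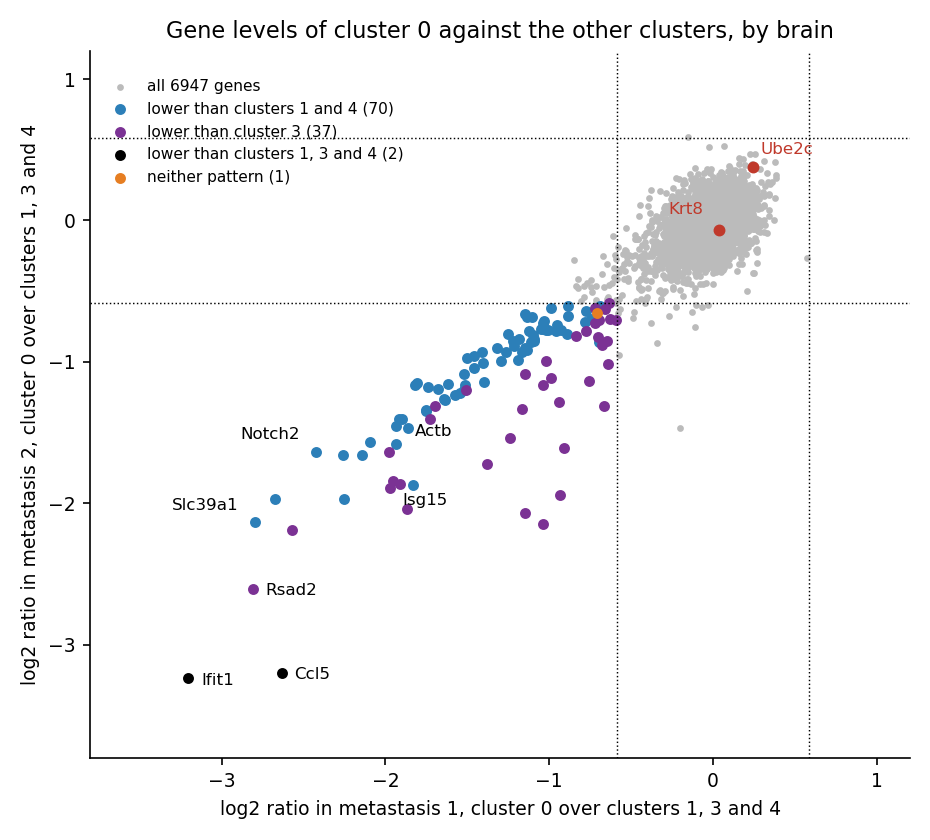
Each point is a gene, placed by its log2 ratio of cluster 0 over clusters 1, 3 and 4 in metastasis 1 (horizontal) and metastasis 2 (vertical). Dotted lines mark 1.5-fold, colours mark the 110 genes at least 1.5-fold lower in both brains by the cluster they were lower than, and no gene lies past the line on the higher side in both brains.

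Across genes, cluster 0 differed from its neighbours by what it held less of. Of 6947 genes with a mean of at least 10 CPM, 0 (0%) were at least 1.5-fold higher in cluster 0 in both brains and 110 (1.58%) were at least 1.5-fold lower in both. With a 2-fold threshold the numbers were 0 and 49 (0.705%). Most genes hardly moved, since the 5th and 95th percentiles of the mean log2 ratio were -0.24 and 0.15. The median log2 ratio over all genes was 0.00.

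The highest mean log2 ratios were small. They belonged to an unnamed RIKEN transcript at 0.39 and to Vgf, the precursor of secreted peptides, at 0.37 (SD 0.08, n = 2 brains). Vgf had 35.6 and 31.1 CPM in cluster 0, against 28.5 and 22.98 CPM in clusters 1, 3 and 4. Acat2 and Mvd, enzymes on the route to cholesterol, reached 0.34 and 0.33. These genes are named after their values were seen, and none passed 1.5-fold.

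The 110 lower genes fell into 2 patterns that turn on which cluster serves as the comparison. Set against each cluster alone, 70 of them were at least 1.5-fold lower in cluster 0 than in both cluster 1 and cluster 4, in both brains, and none of these was so against cluster 3. Another 37 were at least 1.5-fold lower than in cluster 3 and not so against cluster 4, and 20 of these were also so against cluster 1. Ifit1 and Ccl5 passed 1.5-fold against all 3 clusters, and Gas7 against cluster 1 alone. Gas7 also had log2 ratios of -0.71 and -0.58 against cluster 3 and -0.44 and -0.42 against cluster 4. The sorting into patterns was made after the values were seen and carries no test. As a background over all 6947 genes, 116 (1.67%) were lower in cluster 0 than in cluster 1 alone, 76 (1.09%) than in cluster 3 alone and 133 (1.91%) than in cluster 4 alone.

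Beta-actin, the product of Actb and the main actin of motile cells, was the most abundant gene of the first pattern. Actb stood at 3511 and 3902 CPM in cluster 0 of metastasis 1 and metastasis 2, against 13379 and 14316 CPM in cluster 1 and 23090 and 25577 CPM in cluster 4. In cluster 3 it stood at 4022 and 3722 CPM, which overlaps with cluster 0. Actg1, the gene of the other cytoplasmic actin, had 1821 and 1941 CPM in cluster 0, against 1711 and 1877 CPM in clusters 1, 3 and 4 pooled, so of these 2 actin genes only Actb passed 1.5-fold. Actb and Actg1 were chosen after their values were seen.

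The genes of the first pattern with the lowest ratios do different things. Slc39a1, a zinc importer of the plasma membrane on chromosome 3, had 64.1 and 64.2 CPM in cluster 0, against 485 and 436 CPM in cluster 1, 87.8 and 65.1 CPM in cluster 3 and 796 and 729 CPM in cluster 4. Its mean log2 ratio over the 3 clusters pooled was -2.46 (SD 0.47, n = 2 brains). Cluster 3 held 4523263 of the 17599970 UMIs of the pool in metastasis 1 and 12960493 of 26196963 in metastasis 2. An SD over pooled ratios thus also carries this mix. Against cluster 1 alone the log2 ratios of Slc39a1 were -2.90 and -2.75, and against cluster 4 alone -3.61 and -3.49. Notch2, a receptor that is cut on binding its ligand and then acts in the nucleus, had 33.2 and 38.3 CPM in cluster 0, against 191 and 184 CPM in cluster 1, 42.0 and 33.6 CPM in cluster 3 and 329 and 287 CPM in cluster 4. For both genes cluster 0 lay within 1.5-fold of cluster 3 in both brains.

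Abhd2, a lipid hydrolase, had a mean log2 ratio of -2.11, Spry2, an inhibitor of receptor tyrosine kinase signalling, of -1.90, and D17H6S53E of -1.83. Rpgrip1, known from the cilium of photoreceptors, had 28.5 and 29.7 CPM in cluster 0, against 188 and 119 CPM in clusters 1, 3 and 4. Its gene model overlaps that of Supt16, a subunit of the FACT histone chaperone, by 921 bases on chromosome 14, and whether strand was used in counting is not given in the sources used here. Reads of these 2 genes may therefore have been split between them.

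Other listed genes of the first pattern were Insig1, which holds the sterol sensor in the endoplasmic reticulum (mean log2 ratio -1.67), Cdkn1b, the cell cycle inhibitor p27 (-1.40), Pfas, an enzyme of purine synthesis (-1.17), and Cdk6, a kinase of G1 (-0.75). Each was the single called gene of its list, while 1.58% of all genes were called lower. Insig1 had 35.5 and 27.9 CPM in cluster 0, against 132 and 78.9 CPM, while the 22 genes of cholesterol and fatty acid synthesis, Insig1 included, had a median log2 ratio of 0.07. Cdkn1b had 9.52 and 10.1 CPM in cluster 0, against 30.3 and 25.2 CPM. The 68 genes of the 70 that matched an annotation lay on 17 chromosomes, with at most 7 on any of them.

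**Figure D2:**
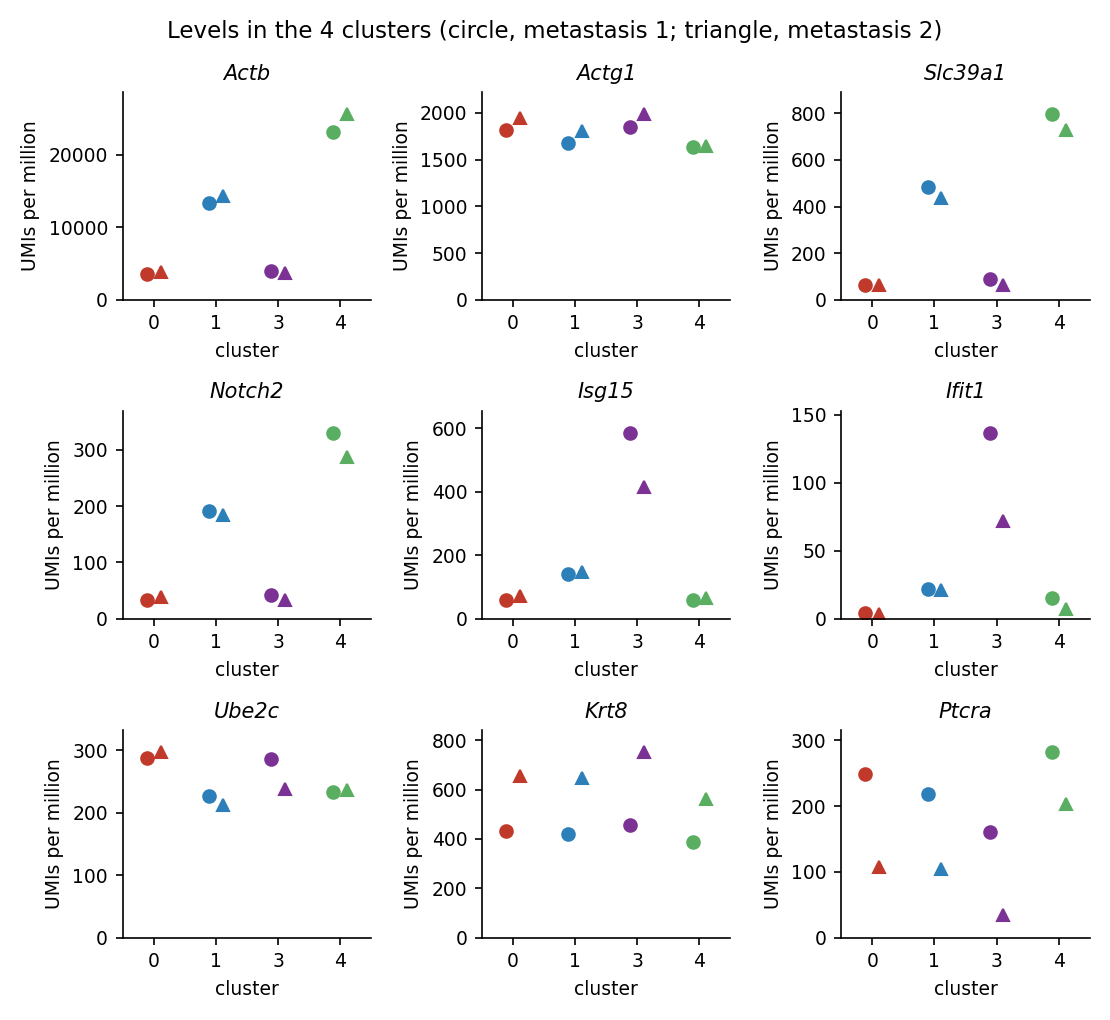
Levels of 9 genes in CPM in clusters 0, 1, 3 and 4, each panel on its own linear axis from 0, with a circle for metastasis 1 and a triangle for metastasis 2. Actb, Slc39a1 and Notch2 are low in clusters 0 and 3, Isg15 and Ifit1 are high in cluster 3, and Actg1 is at a similar level in the 4 clusters.

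Single cells are described next for the same genes. Genes and clusters both come from the RNA of these cells, so the split seen here is no separate support. Thinned to 2000 UMIs, a cell of cluster 0 held a median of 6 and 6 Actb UMIs in metastasis 1 and metastasis 2, against 28 and 28 in cluster 1, 6 and 6 in cluster 3 and 45 and 50 in cluster 4. Only 5 of 1640 and 8 of 1511 cluster 0 cells reached the median of cluster 1, and 0 reached that of cluster 4. The other 69 genes of the pattern summed to a median of 5 and 5 UMIs in cluster 0, against 16 and 16 in cluster 1, 6 and 5 in cluster 3 and 22 and 21 in cluster 4. A Slc39a1 UMI was found in 11.95% and 11.3% of thinned cluster 0 cells, against 60.8% and 45.6% of cells of clusters 1, 3 and 4. In clusters 7 and 9, which are led by choroid plexus genes, the share was 15.9% and 20.1%, so no expression is read from a Slc39a1 UMI in a cluster 0 cell. Free RNA was not measured.

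Clusters 1 and 4 are also the shallow ones. Among cells of 5000 to 10000 UMIs alone, a range chosen after the data were seen, Actb stood at 2922 and 3369 CPM in the 329 and 183 cells of cluster 0, against 13660 and 14108 CPM in cluster 1 and 24193 and 25390 CPM in cluster 4. In that range 64 of the 70 genes were still at least 1.5-fold lower than in clusters 1, 3 and 4 pooled in both brains. Their median log2 ratio was -1.31, against -1.10 over cells of every depth. Of the 37 genes lower than in cluster 3, 20 were still 1.5-fold lower than in this pool, with a median of -0.88, against -1.11. The pool there held 54 and 172 cells of cluster 3, 459 and 546 of cluster 1 and 218 and 150 of cluster 4. These counts are therefore not a comparison with cluster 3 alone. Isg15 had 50.6 and 53.6 CPM in cluster 0 in that range, against 606 and 426 CPM in cluster 3. Within cluster 0, Actb was higher in deeper cells, at 4234 and 4422 CPM among those of 20000 UMIs or more.

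**Figure D3:**
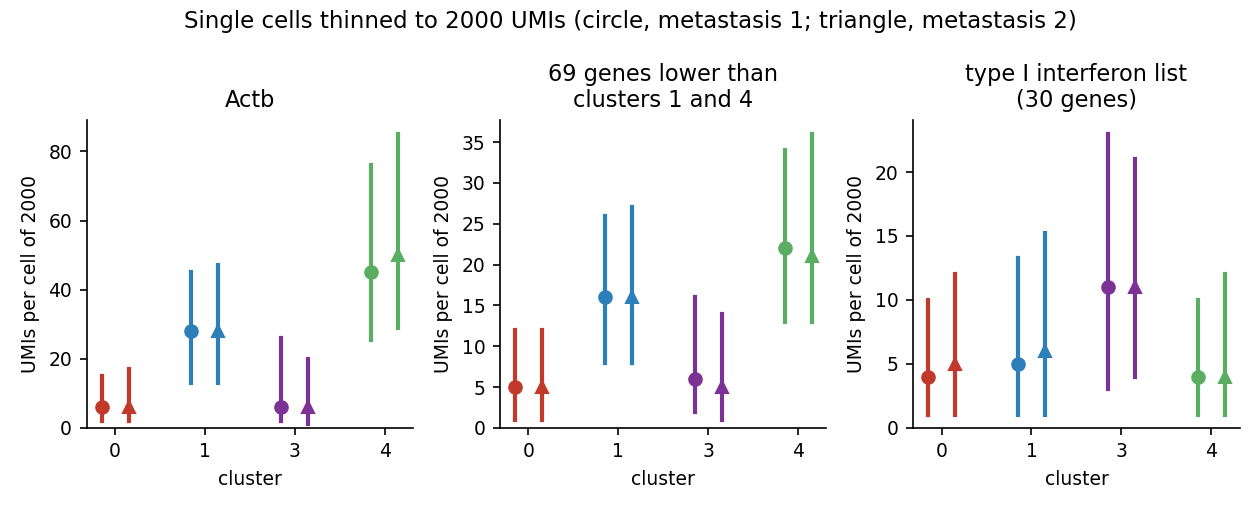
UMIs per cell after thinning every cell to 2000 UMIs, for Actb, for the other 69 genes lower than in clusters 1 and 4, and for the 30 genes of the type I interferon list, in clusters 0, 1, 3 and 4. Symbols are medians and lines run from the 5th to the 95th percentile of cells. The medians of cluster 0 lie by those of cluster 3 in the first 2 panels and by those of clusters 1 and 4 in the last.

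The second pattern held many genes induced by interferon, as 14 of its 37 genes are on the type I interferon list. Of the 30 genes on the type I interferon list, 17 passed the filter, and some of these passed it through their level in clusters 1, 3 and 4. Passing it that way favours a call as lower. Of the 17, 15 were lower in cluster 0 than in clusters 1, 3 and 4 pooled, beside 1.58% of all genes. Against single clusters, 17 were lower than in cluster 3, 10 than in cluster 1 and 1 than in cluster 4. Over all genes these shares were 1.09%, 1.67% and 1.91%. The other 13 genes were too low to be counted. The whole list summed to 2499 and 2768 CPM in cluster 0, against 3570 and 4552 CPM in clusters 1, 3 and 4.

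Ifit1, which binds foreign RNA caps, had the lowest ratio of all genes. It stood at 4.54 and 3.87 CPM in cluster 0 of metastasis 1 and metastasis 2, against 22.1 and 21.4 CPM in cluster 1, 136 and 72.2 CPM in cluster 3 and 15.2 and 7.50 CPM in cluster 4. The mean log2 ratio over the 3 clusters pooled was -3.22 (SD 0.03, n = 2 brains). Its level was thus lower in cluster 0 than in any of the 3 clusters of the same brain.

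Isg15, a ubiquitin-like protein joined to others after interferon, had 59.9 and 72.2 CPM in cluster 0, against 143 and 148 CPM in cluster 1, 584 and 416 CPM in cluster 3 and 59.8 and 65.1 CPM in cluster 4. Against cluster 4 alone the log2 ratio of Isg15 was 0.08, so its lower level in cluster 0 concerned clusters 1 and 3. Rsad2, the antiviral enzyme viperin, had 4.02 and 4.44 CPM in cluster 0, against 34.1 and 32.1 CPM in clusters 1, 3 and 4 pooled. Usp18, which removes Isg15 from proteins and limits signalling at the interferon receptor, had 9.43 and 11.4 CPM in cluster 0, against 60.97 and 55.3 CPM. Cluster 3 held the highest level of each of these genes among the 4 clusters in both brains.

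Irf7, which drives interferon and its targets, had 14.1 and 25.1 CPM in cluster 0, against 57.6 and 92.4 CPM in clusters 1, 3 and 4, with a log2 ratio of 0.03 against cluster 4 alone. Irf9, a factor that binds the response element, had a mean log2 ratio of -0.70, and 0.04 against cluster 4 alone. Zbp1, a sensor of nucleic acids in the cell, had a mean log2 ratio of -1.89, Ifi44 of -1.96 and Oasl2, of the oligoadenylate synthetase family, of -1.81. Ifitm3, which blocks viral entry and is the most abundant gene on the list, had 1225 and 1386 CPM in cluster 0, against 1517 and 1974 CPM, a mean log2 ratio of -0.41 that did not reach 1.5-fold in either brain.

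The upstream sequences of 3 of these genes are shown because the genes moved together and hold copies of the element that interferon factors bind. Each runs 5′ to 3′ on the gene's own strand over the 250 bases before the RefSeq start (build GRCm38.p6), and capitals mark GAAA repeated after any 2 bases, on either strand. The matches in Isg15 overlap one another.
Ifit1, plus strand, chr19:34640639-34640888: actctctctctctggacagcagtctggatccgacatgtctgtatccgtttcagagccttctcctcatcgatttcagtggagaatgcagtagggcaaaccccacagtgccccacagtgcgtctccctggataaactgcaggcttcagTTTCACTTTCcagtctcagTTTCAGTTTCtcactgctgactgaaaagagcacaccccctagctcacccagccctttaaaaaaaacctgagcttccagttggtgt
Rsad2, minus strand, chr12:26456453-26456702: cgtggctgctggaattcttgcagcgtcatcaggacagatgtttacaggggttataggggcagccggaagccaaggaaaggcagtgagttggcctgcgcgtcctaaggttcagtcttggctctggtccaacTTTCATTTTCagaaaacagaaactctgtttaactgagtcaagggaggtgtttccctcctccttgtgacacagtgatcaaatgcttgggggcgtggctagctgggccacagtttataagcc
Isg15, minus strand, chr4:156200819-156201068: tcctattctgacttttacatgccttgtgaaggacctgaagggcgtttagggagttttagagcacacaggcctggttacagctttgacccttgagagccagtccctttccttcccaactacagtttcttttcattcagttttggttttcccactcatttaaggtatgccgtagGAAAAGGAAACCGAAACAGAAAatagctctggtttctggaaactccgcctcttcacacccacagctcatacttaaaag
Ifit1 held 2 matches, between 104 and 76 bases before the start, Rsad2 held 1, and Isg15 held 3, between 78 and 57 bases before it. Of the 37 genes of the second pattern, 27 had a promoter in the RefSeq table, and 8 of those (29.6%) held the motif in this window. The share was 3.04% of all 27025 promoters and 2.63% of the 5553 genes past the filter that had one. Of the 59 promoters matched for the first pattern, 0 held it. A match describes letters in this window and no binding was measured.

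Antigen presentation genes leaned lower in cluster 0, mainly against cluster 3. Of 13 genes of MHC class I and peptide loading past the filter, 2 were lower than in clusters 1, 3 and 4 pooled, beside 1.58% of all genes. Against cluster 3 alone 8 were lower, beside 1.09% of all genes, and 0 against cluster 1 or cluster 4 alone. Over the pool, 12 had a ratio below 0 in both brains, beside 32.1% of all genes. The median log2 ratio was -0.31, beside 0.00 over all genes, and 0.16 against cluster 4 alone. Psmb9, a catalytic subunit of the immunoproteasome, had 19.8 and 34.0 CPM in cluster 0, against 32.3 and 63.5 CPM. Tap1, which pumps peptides into the endoplasmic reticulum, had 25.8 and 36.7 CPM in cluster 0, against 39.4 and 60.6 CPM. H2-D1, a class I heavy chain, had 1367 and 1543 CPM in cluster 0, against 1467 and 1875 CPM, which is within 1.5-fold.

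Among 12 secreted factors past the filter, 2 were lower than in clusters 1, 3 and 4 pooled, beside 1.58% of all genes. Ccl5, a chemokine for T cells and monocytes, had 10.9 and 12.1 CPM in cluster 0, against 72.7 and 119 CPM in clusters 1, 3 and 4, with 194 and 208 CPM in cluster 3. Ccl7, a chemokine for monocytes, had 19.4 and 18.9 CPM in cluster 0, against 37.4 and 59.9 CPM, and a log2 ratio of 0.62 against cluster 4 alone. Mif, the most abundant of the list, had a mean log2 ratio of 0.01.

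Thinned to 2000 UMIs, 10.3% and 11.3% of cluster 0 cells held an Isg15 UMI, against 58.4% and 46.4% of cluster 3 cells. In clusters 7 and 9 the share was 20.7% and 24.5%, so no expression is read from an Isg15 UMI in a cluster 0 cell. Over the whole list a thinned cluster 0 cell held a median of 4 and 5 UMIs, against 11 and 11 in cluster 3, 5 and 6 in cluster 1 and 4 and 4 in cluster 4. Some cluster 0 cells lay within the range of cluster 3, as 78 (4.76%) and 130 (8.60%) of them reached its median.

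Genes of cell division were abundant in cluster 0 and differed little from the other clusters. Of 45 genes of G2 and mitosis, 44 passed the filter and 0 were 1.5-fold higher or lower, with a median log2 ratio of 0.11. Of the 44, 36 had a ratio above 0 in both brains, beside 35.7% of all genes, and 1 below 0 in both. The list summed to 5720 and 5631 CPM in cluster 0 of metastasis 1 and metastasis 2, against 5368 and 5082 CPM in clusters 1, 3 and 4. The 38 genes of S phase and replication past the filter had a median log2 ratio of 0.02 and summed to 1812 and 1698 CPM in cluster 0, against 1794 and 1628 CPM.

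Ube2c had the largest ratio of the mitotic list, 0.31, followed by Aurka, a kinase of the spindle poles (0.23), Ccnb1, cyclin B1 (0.22), and Nusap1, a spindle protein (0.21). Cks1b, a partner of cyclin-dependent kinases and the most abundant of the list, had 0.11. On the S phase list, Rpa2, which binds single-stranded DNA, had 0.24, Gins1, part of the replicative helicase, 0.24, and Fen1, a flap nuclease, 0.20, whereas Atad2, a chromatin protein, had -0.19. All lie under 1.5-fold.

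Mitotic RNAs made up more of the UMIs in deeper cells. In cluster 0 the G2 and mitosis list summed to 4542 and 4535 CPM in cells of 5000 to 10000 UMIs, 5360 and 5056 CPM at 10000 to 15000, 5949 and 5972 CPM at 15000 to 20000 and 6922 and 5980 CPM at 20000 or more. Ube2c went with it, at 126 and 127 CPM in the shallowest of these ranges and 460 and 351 CPM in the deepest. Within the range of 5000 to 10000 UMIs the list was lower in cluster 0 than in cluster 1, at 5288 and 5201 CPM, and than in cluster 4, at 5150 and 5032 CPM. Cluster 3 had 4684 and 3810 CPM there. The list's median log2 ratio over clusters 1, 3 and 4 in this range was -0.19, the opposite sign of the ratio over cells of every depth, and that of the S phase list was -0.10. Depth differed within 5000 to 10000 UMIs, with medians of 8687 and 8650 UMIs in cluster 0 and 6570 and 6546 in cluster 1. In the deeper ranges cluster 1 lay below cluster 0 in both brains, at 5067.5 and 4690.5, 5704 and 4841, and 6344 and 5664 CPM. Cluster 4 had 5361 and 5808 CPM at 10000 to 15000 and 5653 and 4928 CPM at 15000 to 20000. Cluster 3 lay above cluster 0 in these ranges only at 15000 to 20000 in metastasis 1, at 6088 CPM. The part of depth in the mitotic ratios was otherwise not tested, and the ranges were chosen after the data were seen. The deepest held 182 and 345 cells of cluster 0.

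**Figure D4:**
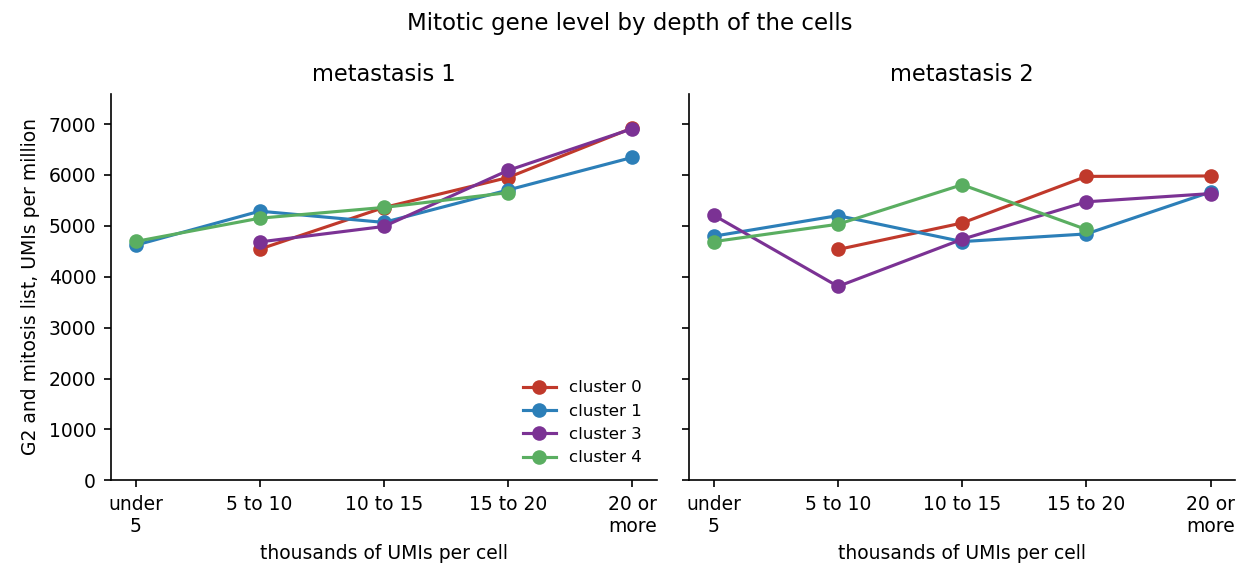
Summed level of the 45 G2 and mitosis genes, in CPM, against the depth of the cells in UMIs per cell, for clusters 0, 1, 3 and 4 in each brain. Points rest on at least 20 cells. In cluster 0 the level was 4542 and 4535 CPM in the shallowest range and 6922 and 5980 in the deepest. At 5000 to 10000 UMIs clusters 1 and 4 lie above cluster 0, and in the deeper ranges cluster 1 lies below it.

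At 2000 UMIs per cell, 10 or more mitotic UMIs were found in 54.4% and 53.2% of cluster 0 cells, against 50.7% and 47.5% of cells of clusters 1, 3 and 4 and 26.4% and 33.2% of cells of clusters 7 and 9. A Ube2c UMI was found in 33.0% and 32.8% of cluster 0 cells, against 27.7% and 27.0% in clusters 1, 3 and 4 and 8.17% and 15.2% in clusters 7 and 9. A Krt8 UMI was found in 53.3% and 67.9% of cluster 0 cells, against 53.8% and 67.2% and, in clusters 7 and 9, 29.8% and 35.9%. Median depths before thinning were 13260 and 15288 UMIs in cluster 0, 6892 and 8773 UMIs in clusters 1, 3 and 4 and 4866 and 6244 UMIs in clusters 7 and 9.

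The promoter of Ube2c is shown because it holds both motifs known from promoters of mitotic genes. It runs 5′ to 3′ over the 250 bases before the RefSeq start on the plus strand (build GRCm38.p6), with capitals for matches to CCAAT and TTTGAA on either strand.
Ube2c, plus strand, chr2:164769679-164769928: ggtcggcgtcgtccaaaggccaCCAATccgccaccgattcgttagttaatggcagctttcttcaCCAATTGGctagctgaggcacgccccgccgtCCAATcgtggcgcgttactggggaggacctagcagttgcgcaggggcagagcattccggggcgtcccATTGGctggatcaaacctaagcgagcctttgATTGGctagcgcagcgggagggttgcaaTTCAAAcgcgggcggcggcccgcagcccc
It held 6 matches to CCAAT, a pair of which overlap, and 1 match to TTTGAA, 29 to 24 bases before the start. Of the 38 promoters matched for the G2 and mitosis list, 28 (73.7%) held CCAAT and 13 (34.2%) TTTGAA, beside 36.9% and 10.2% of the genes past the filter.

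The remaining lists stayed near the median of all genes. Nuclear genes of oxidative phosphorylation (27 genes, median log2 ratio 0.08), RNA splicing and export (28 genes, 0.09), ribosome biogenesis (30 genes, 0.07), nucleotide synthesis (25 genes, 0.06), serine and one-carbon enzymes (11 genes, 0.06), the proteasome (24 genes, 0.06) and chaperones (22 genes, 0.04) had medians slightly above 0 and, except for Pfas, no gene past 1.5-fold. Of the 27 oxidative phosphorylation genes, 23 were above 0 in both brains and 0 below in both, beside 35.7% and 32.1% of all genes. Glycolysis and hypoxia genes (25 genes) had a median of -0.03, with Vegfa, the endothelial growth factor, at -0.30 and Bnip3, of mitochondrial clearance, at -0.29.

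Mesenchymal and matrix genes (20 past the filter) had a median of -0.11 and 0 called genes. The lowest ratio was that of Acta2, smooth muscle actin, with 34.0 and 18.8 CPM in cluster 0, against 39.3 and 53.9 CPM in clusters 1, 3 and 4, which differed between the brains (mean log2 ratio -0.84, SD 0.89). Myc, a driver of growth, had 73.1 and 62.2 CPM in cluster 0, against 92.1 and 88.1 CPM in clusters 1, 3 and 4 pooled. By cluster, Myc had 80.4 and 66.9 CPM in cluster 1, 143 and 113 CPM in cluster 3 and 59.8 and 54.5 CPM in cluster 4. Among genes of the mitochondrial genome, mt-Nd5, of respiratory complex I, was called lower at 84.1 and 68.9 CPM in cluster 0, against 131 and 112 CPM. The median of the 12 was -0.03 over the pool, but 0.24 over cluster 3 alone and -0.45 over cluster 4 alone. Lgals9, a galectin on the checkpoint list, was called lower at -0.75, and Cd47, the signal against phagocytosis, had -0.15.

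Proteins of spindle and chromatin in dividing cells (27 genes, median 0.09) and antioxidant genes (16 genes, 0.05) had 0 called genes, as did the Myc family (5 genes, 0.02). Genes of amino acid and endoplasmic reticulum stress (16 genes, -0.08) and immediate early genes (14 genes, -0.08), which tissue dissociation can induce, had 0 called genes too. Atf3, a stress-induced transcription factor on both lists, had a mean log2 ratio of -0.42. The medians were -0.06 for 8 G1 cyclins and partners, -0.04 for 10 inhibitors of the cell cycle, -0.19 for 12 secreted factors, -0.04 for 6 checkpoint genes, -0.02 for 4 epithelial genes and -0.02 for 3 T lineage genes.

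Some genes were higher in cluster 0 when a single cluster was the comparison. Against cluster 3 alone, 18 genes (0.259%) were at least 1.5-fold higher in both brains, against cluster 4 alone 7 (0.101%) and against cluster 1 alone 0 (0%). Ptcra had 249 and 107 CPM in cluster 0, against 160.5 and 35.3 CPM in cluster 3 and 282 and 204 CPM in cluster 4, so it lay above the one and below the other. Lepr, the leptin receptor, had 131 and 104 CPM in cluster 0, against 67.2 and 54.2 CPM in cluster 3. Plk4 had 416 and 372 CPM in cluster 0, against 246.5 and 195 CPM in cluster 3. Adm, the vasodilator peptide adrenomedullin, had 42.5 and 54.0 CPM in cluster 0, against 24.4 and 33.8 CPM in cluster 4. Lepr, Plk4 and Adm are named after their values were seen.

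Genes differed in how evenly cluster 0 cells held them. Unevenness was measured, over 4729 genes at 20 CPM or more in cluster 0 of both brains, as the variance of a gene's UMIs over cells relative to that of Poisson counts at the cells' own depths. The median was 1.09 and the 95th percentile 1.91, and 9 genes exceeded 10 (the lower of the 2 brains in each case). Malat1, a long RNA kept in the nucleus, led with 64.3 and 75.0. It is abundant, which raises this measure, and 99.4% and 98.3% of cells held 10 or more of its UMIs. Next came Tmem267 with 47.7 and 72.5. Ptcra had 44.5 and 26.8, while Krt8 had 1.87 and 3.77 and Ube2c 5.21 and 6.86. The genes were chosen by this ranking after the values were seen.

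Ptcra was found at high number in few cells. Of cluster 0 cells, 67.1% and 76.7% held 0 Ptcra UMIs, and 50.6% and 58.7% held 0 Tmem267 UMIs. The median cluster 0 cell held 0 Ptcra UMIs in both brains and the highest held 207 and 112. In 161 (9.82%) and 77 (5.09%) of cells there were 10 or more Ptcra UMIs. The 5% of cells with most Ptcra carried 61.8% and 71.1% of its UMIs in cluster 0, against 65.7% and 75.9% in clusters 1, 3 and 4. Tmem267 was alike in this share, with 57.8% and 65.3% in the top 5% of cluster 0 cells, against 52.0% and 67.9%. For Krt8 that share was 11.9% and 11.6% in cluster 0, against 11.3% and 12.1%. These shares pool clusters 1, 3 and 4. In thinned cells a Ptcra UMI was found in 16.1% and 9.13% of cluster 0 cells, against 14.3% and 8.17% in cluster 1, 9.63% and 5.27% in cluster 3 and 19.5% and 11.5% in cluster 4, and in 5.77% and 4.89% of cells of clusters 7 and 9.

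**Figure D5:**
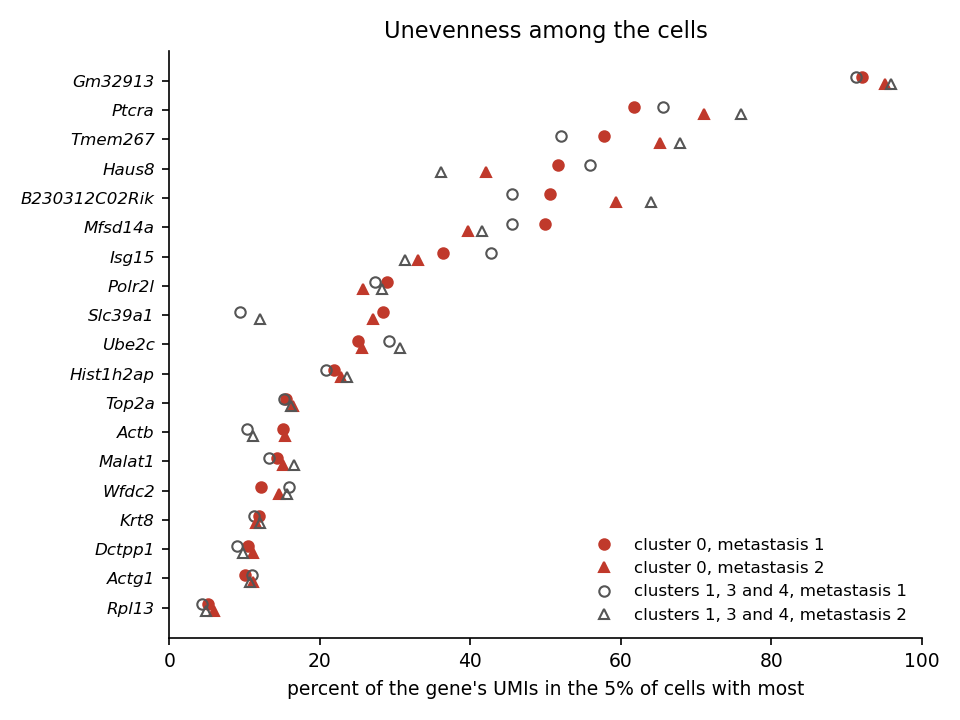
Percent of a gene's UMIs found in the 5% of cells that hold most of it, for 19 genes, in cluster 0 (filled) and in clusters 1, 3 and 4 (open) of metastasis 1 (circles) and metastasis 2 (triangles). Ptcra lies at 61.8 and 71.1 percent and Krt8 at 11.9 and 11.6 percent in cluster 0.

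How far genes were found in the same cells differed between pairs. Over cluster 0 cells of metastasis 1 and metastasis 2, Spearman's rho of depth-scaled levels was 0.09 and 0.15 between Ptcra and Tmem267 and 0.04 and 0.02 between Ptcra and Haus8, of the augmin complex at spindles. Polr2l, a subunit of RNA polymerases, and Plk4 had 0.24 and 0.36. It was 0.42 and 0.56 between Ube2c and Top2a and 0.55 and 0.57 between Top2a and Hist1h2ap. Actb and Slc39a1 reached 0.37 and 0.38. Krt8 and Wfdc2 had 0.01 and 0.07. Cells of a brain share a library and differ in depth, so these values are a description.

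The 2 brains resembled each other in cluster 0 apart from a few genes. Of 6947 genes, 16 (0.23%) were at least 2-fold higher in metastasis 2 and 8 (0.115%) at least 2-fold lower there, and all 24 differed at least 1.5-fold the same way in clusters 1, 3 and 4. With 1 suspension on each side there is no replicate check. Rhox1, a reproductive homeobox gene of the X chromosome, had 108 CPM in cluster 0 of metastasis 2, against 24.9 CPM in metastasis 1. Mt2, a metallothionein, had 109 CPM in metastasis 2, against 49.1 CPM in metastasis 1. Cela1, an elastase, had 18.3 CPM in metastasis 2, against 3.23 CPM in metastasis 1. Sncg, a synuclein, went the other way, with 57.7 CPM in metastasis 2, against 124 CPM in metastasis 1. These genes were chosen after their values were seen.

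Surface antibodies gave a second readout, and no column of the per-cell table names a step that used it for clustering. A cluster 0 cell carried a mean of 7.12 and 8.06 antibody tags in metastasis 1 and metastasis 2, against 5.68 and 6.83 in clusters 1, 3 and 4 and 470 and 492 in cluster 2, which carries many CD11b and CD45 tags. CD45, the common leukocyte antigen, made up 272 and 283 of every 1000 tags in cluster 0, against 327 and 325 in clusters 1, 3 and 4, a mean log2 ratio of -0.23 (SD 0.05, n = 2 brains). Counted as mean tags per cell the direction turned, with 1.94 and 2.29 CD45 tags in cluster 0, against 1.86 and 2.22, a mean log2 ratio of 0.05. CD3e, part of the T cell receptor complex, made up 29.1 and 24.1 of every 1000 tags in cluster 0, against 19.9 and 19.98, a mean log2 ratio of 0.41 (SD 0.20, n = 2 brains). At 0.207 and 0.194 CD3e tags a cell, against 88.0 in cluster 8 of metastasis 2, no expression is read from this share.

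All 6 antibodies were compared in the same way. Ratios for CD25, CD4 and CD86 were 0.14, 0.19 and 0.18, each above 0 in both brains, and CD11b had 0.04. These rest on shares of all tags, and as mean tags per cell CD25, CD4 and CD86 had 0.42, 0.47 and 0.46. Per 1000 UMIs the same antibodies were lower in cluster 0 in both brains. CD4 had 0.0555 and 0.0515 tags per 1000 UMIs there, against 0.0646 and 0.0595 in clusters 1, 3 and 4. At 0.421 to 0.856 tags a cell in cluster 0, no expression is read from CD25, CD4 or CD86. In an exact permutation test over brains, two-sided, the p was 0.5 for each antibody, and 0.5 after Benjamini-Hochberg adjustment over 6. With 2 brains 0.5 is the smallest p this test can give, so no difference could be called.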

How the data were processed

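Brains were measured by CITE-seq. The deposited matrices hold UMI counts per gene, antibody tag and hashing tag, made by the authors with Cell Ranger 3.0.2 on mm10 and analysed with Seurat 3.0.1, per the submitters' processing notes. The deposited per-cell table gives clusters, hash calls and the percent of mitochondrial UMIs, and its columns name no step that used antibody tags for clustering. Of 31053 genes, UMIs were summed per brain and cluster, scaled to CPM, and compared as the log2 ratio with 1 CPM added, within each of the 2 brains. Genes with a mean of at least 10 CPM were kept, and a gene was called at 1.5-fold in both brains. The clusters come from the same RNA, so no test was made on it. Antibody tags were compared by an exact permutation test. For shares of cells, each cell was thinned to 2000 UMIs and shallower cells were left out.

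Named genes were the 5 label markers, up to 15 called genes with the most extreme ratios each way at 20 CPM or more, and the 4 most extreme genes and the most abundant gene of each of 26 lists. Others are said to be chosen after their values were seen. The members and lists were chosen with earlier results of these data known. Scrublet in scanpy 1.11.5 called 220 doublets (1.77%), 2 and 1 of them in cluster 0, and they were kept. Alternatives used edgeR 4.0.16 in R 4.3.3 for scaling factors, and numpy 2.4.6, scipy 1.17.1, pandas 2.3.3 and matplotlib 3.10.9 did the rest. The calls were tested on simulated data. Comparison within 5000 to 10000 UMIs was added after seeing the data. Promoters came from RefSeq, taking the first entry of each symbol. A result on an item withheld for evaluation is not reported here.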

Additional observations from a re-analysis of the deposited data

Results flagged for a closer look

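Cells hashed to a naive brain also lay in cluster 0, a signal in samples that the comparisons did not use. In naive 1 they were 37 of 572 cells (6.47%, 95% exact Clopper-Pearson interval 4.60 to 8.81), above the 0.524% that a count of 0 would allow, and in naive 2 they were 3 of 315 (0.952%). These cells carried a median of 12 tags of their own hashing antibody in naive 1, or 12.8% of their hashing tags, and 4 in naive 2, or 8.89%. In cluster 0 of metastasis 1 and metastasis 2 the own tag made up 93.3% and 97.9%. Krt8 stood at 576 CPM in the naive 1 cells, against 432 and 656 CPM in metastasis 1 and metastasis 2. How these cells came by their hash call was not tested.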

How the results depend on the processing

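The 110 lower genes numbered 108 and 106 with TMM and RLE scaling, 125 to 139 with 1 brain left out, 185 without the filter, 30 at a mean of at least 50 CPM and 49 at 2-fold. The 0 higher genes became 1 in thinned cells, 11 in cells with no immune marker UMI, 3 in cells of 5000 to 10000 UMIs, 18 against cluster 3 and 7 against cluster 4, and 0 to 1 with 1 brain left out. The median of the G2 and mitosis list was 0.14 with RLE, 0.023 in cells with no immune marker UMI, -0.19 in cells of 5000 to 10000 UMIs, 0.0497 against cluster 3, 0.15 against cluster 4 and 0.0860 to 0.12 with 1 brain left out. That of the S phase list was -0.10 in cells of 5000 to 10000 UMIs, -0.0340 against cluster 1 and 0.16 against cluster 4. The difference in median genes per thinned cell was -0.75, and -4.00 at 4000 UMIs. CD45 turned to 0.0519 as mean tags per cell. Against cluster 4 alone the ratio turned to 0.69 for Acta2, 0.62 for Ccl7, 0.0274 for Irf7, 0.0750 for Isg15, 0.000952 for Lgals9, 0.25 for Psmb9, 0.72 for Spp1 and 0.0624 for Tap1, and against cluster 3 alone to 0.17 for Insig1 and 0.0329 for Rpgrip1. Spp1 turned to 0.22 in cells of 5000 to 10000 UMIs. The causes were not tested. All ratios, and the antibody test, are already paired within brains. With 2 suspensions, 1 pool and shallow clusters 1 and 4, depth limits what low genes can show.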
